A study of Mus musculus with 778 samples.

Results

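Single GO1 oocytes with many sequenced transcript molecules were compared with GO1 oocytes with few. The GO1 cells of the single-cell RNA-seq were split by their total of unique molecular identifiers (UMIs), each of which stands for 1 counted transcript molecule. Of 223 oocytes in the deposited count table, 51 were GO1, and 10 of these had at least 400000 UMIs and are called deep. The other 41 GO1 oocytes had fewer UMIs and are called shallow. The split uses a measured value, so the depths themselves describe the choice and are no result, while the levels of genes relative to the total of a cell were not used by it.

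All oocytes came from wild type female ICR mice, an outbred strain, and were washed and picked by hand. The stages were set by diameter, with GO1 at 30 to 45 µm and GO2, the next stage, at 50 to 55 µm, both from animals 3 to 4 weeks old. Non-growing oocytes (NGO, under 20 µm) came from pups 3 to 4 days old, while GO3 (60 to 65 µm) and fully grown oocytes (FGO, above 70 µm) came from animals of the same age as GO1. The labels give 4 libraries but not the library, animal or exact diameter of a cell. Each group of cells was therefore 1 pooled sample, no test between groups was possible, and differences are given by their size beside the spread over cells.

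Oocyte growth is the phase in which an oocyte leaves the resting pool, enlarges and stores the messenger RNA and proteins that later carry meiosis and the first divisions of the embryo. Growing oocytes lay down the zona pellucida, secrete growth factors such as GDF9 and BMP15 to the surrounding granulosa cells, and begin de novo DNA methylation through DNMT3A and its partner DNMT3L. Meiosis stays arrested meanwhile, as regulators of the cell cycle accumulate.

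The 10 deep cells held 421142 to 3898137 UMIs, with a median of 2499023, and the 41 shallow cells held 22279 to 376203, with a median of 82450. The deepest cells stood apart, since 6 deep cells had 2380942 UMIs or more and the other 4 had 782536 or fewer. Just inside the threshold lay a cell of 421142 UMIs and then one of 626339, and just outside it lay cells of 376203 and 369854. The deep cells held 80.4% of all GO1 UMIs. Every deep cell had a number of at most 21 in its name, against 11 of the shallow cells. The other 30 shallow cells were numbered above 21. What the numbers stand for was not given in the sources used here, so depth and any order of collection cannot be told apart.

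**Figure D1:**
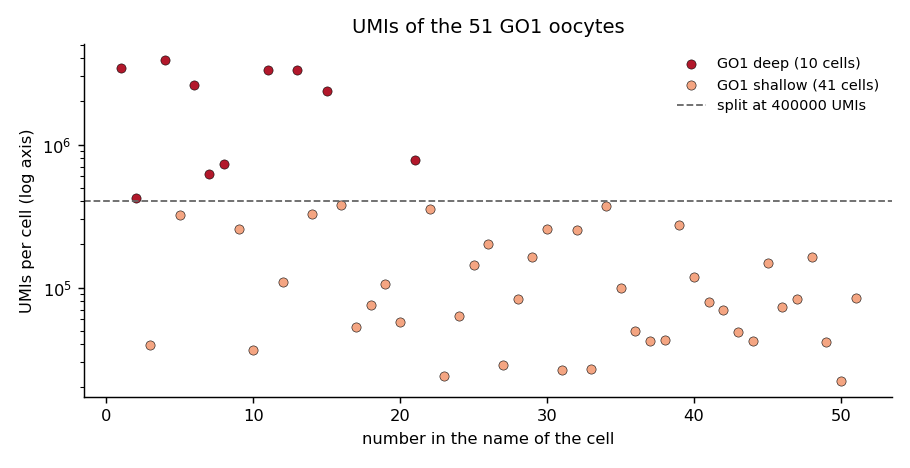
UMIs of each of the 51 GO1 oocytes (log axis) against the number in its name, with deep cells in dark red, shallow cells in light orange and the split at 400000 UMIs as a dashed line. All 10 deep cells lie at numbers up to 21, and shallow cells lie over the whole range to 51.

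Both groups showed the defining transcripts of oocytes. The summed level of 18 oocyte marker genes was 23093 to 37179 UMIs scaled to a total of 1000000 per cell (CPM) in deep cells, with a median of 32848, and 19131 to 36185 in shallow cells, with a median of 25622. The 18 granulosa markers summed to 35.9 to 131.9 CPM in deep cells and 0 to 227 in shallow cells, and *Amh* and *Foxl2*, which define granulosa cells, had 2 UMIs each over all deep cells and 1 and 3 over all shallow cells. Of the 18, 3 were above 10 CPM and none of these passed 2-fold. *Cyp19a1*, the aromatase gene, had a mean of 17.4 CPM in deep and 16.9 in shallow cells, *Nr5a2* had 17.6 and 16.1, and *Slc18a2* had 10.2 and 12.05. The first 2 had UMIs in all 10 deep cells and the third in 9, and their part in other differences was not tested. Neither theca and stroma nor blood and immune markers had a member above 10 CPM in either group. Of the endothelial markers *Pecam1* alone was above that level, at a mean of 34.5 CPM in deep and 13.6 in shallow cells. *Kdr* was at 1.38 and 0.389 CPM, while *Tek* went the other way, at 4.86 and 6.44 CPM. *Cdh5* and *Emcn* had 0 UMIs in both groups. The part of *Pecam1* in other differences was not tested. One shallow cell, of 39670 UMIs, stood apart with 9226 CPM of ribosomal protein genes, against 24119 to 51854 in the other shallow cells.

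For each group the CPM values of its cells were averaged, and a gene was called higher where this mean was at least 2-fold higher in one group and at least 10 CPM there. Of 7710 genes with at least 10 CPM in either group, 1317 (17.1%) were higher in deep cells and 368 (4.77%) were higher in shallow cells. The differences were not centred on 0, since the median over the 7710 genes was 0.30 on the log2(CPM + 1) scale in favour of deep cells. TMM factors lowered all log2 differences by 0.20 and DESeq2 size factors by 0.24, which left medians of 0.10 and 0.07. Both kinds of factor were computed from the UMIs summed over each group, where the deepest cells weigh most. They were then applied to the means over cells. Under these scalings 787 and 717 genes were higher in deep cells, and 559 and 603 in shallow cells. The size of the excess of genes higher in deep cells therefore depended on the scaling, and each list below is given beside the median of 0.30.

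**Figure D2:**
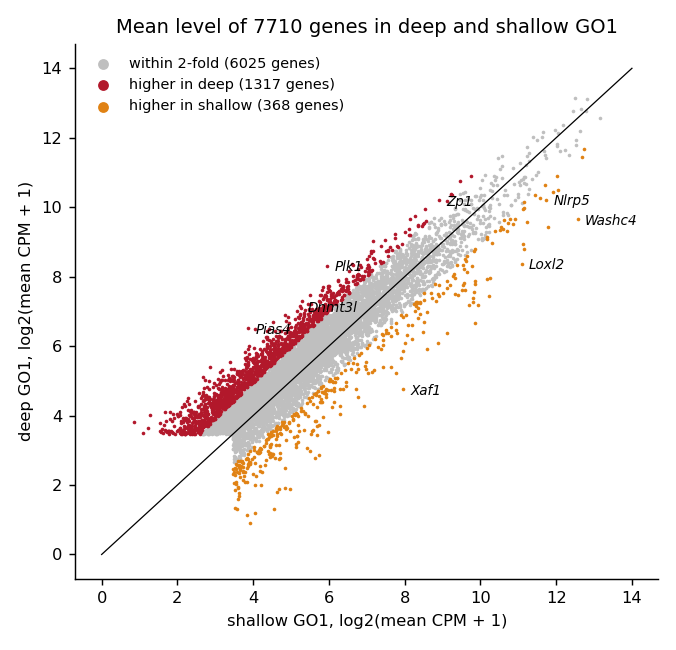
Mean CPM of 7710 genes in the 10 deep (vertical axis) and 41 shallow (horizontal axis) GO1 oocytes, both as log2(CPM + 1), with the diagonal as a line. The 1317 genes higher in deep cells lie mostly at low to moderate levels, and the 368 genes higher in shallow cells include abundant transcripts such as *Washc4* and *Loxl2*.

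The genes with the largest ratios towards deep cells, among those of at least 50 CPM that also passed after thinning and whose quartile ranges did not overlap, included regulators of division, signalling and cell survival. *Pias4* (chromosome 10, 80616011 to 80630668, minus strand of NCBIM37, annotated as a gene in GENCODE vM1), a SUMO ligase, had 4.79 to 183 CPM in deep cells with a median of 95.4, and 0 to 89.8 CPM in shallow cells with a median of 3.97. Its mean was 6.67-fold higher in deep cells. *Plk1* (chromosome 7, 129302951 to 129313389, plus strand) encodes the polo-like kinase needed for spindle assembly. It had 86.2 to 494 CPM (median 361) in deep cells and 0 to 184 (median 58.1) in shallow cells, a 5.15-fold difference of means. For both genes 6 of the 10 deep cells lay above every shallow cell, while the lowest deep cells lay inside the shallow range. *Bcl2l1*, which encodes the anti-apoptotic protein BCL-XL, had 41.5 to 161 CPM (median 123.9) in deep cells and 0 to 86.04 (median 18.2) in shallow cells. *Stat3*, a transcription factor of cytokine signalling, had 37.99 to 189.8 CPM (median 124.7) in deep cells and 0 to 126.04 (median 21.9) in shallow cells. The means of *Bcl2l1* and *Stat3* were 4.71-fold and 4.22-fold higher in deep cells. The other genes of this set were *Pex14* of the peroxisomal membrane, the hyaluronidase gene *Hyal2*, the mTORC1 inhibitor gene *Akt1s1*, the replicative helicase gene *Mcm2*, the lipase gene *Abhd16a* and *Trafd1*. They were 4.31-fold to 5.72-fold higher, with 9 or 10 of the 10 deep cells above the shallow median. The choice by quartile ranges that did not overlap largely fixed such counts.

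Shallow cells limit how low a level can be read. A single UMI amounted to 12.1 CPM in a shallow cell of median depth and 44.9 CPM in the shallowest, and a count of 0 allowed up to 36.4 and 134.7 CPM (3 UMIs, counting error only). *Pias4* had a UMI in all 10 deep cells and in 21 of 41 shallow cells. Summed over cells, *Pias4* had 2602 UMIs in deep and 68 in shallow cells, and the ratio of the summed levels was 9.31 (exact 95% interval 7.32 to 12.03, which covers counting error only). For *Plk1* the same ratio was 5.26 (4.76 to 5.82) from 8862 and 410 UMIs. These ratios of sums weight deeper cells more than the means do.

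Regulators of meiotic arrest and resumption were shifted towards deep cells. Of 13 members above 10 CPM, 5 were higher in deep cells and 0 in shallow cells, beside 17.1% and 4.77% of all tested genes, and the median log2 difference was 0.88 beside 0.30 over all tested genes. These were *Plk1*, *Ccnb1*, which encodes cyclin B1, the spindle kinase gene *Aurka*, *Fzr1*, the activator of the anaphase-promoting complex that holds prophase arrest, and *Gpr3*, a receptor that keeps cAMP high during arrest. *Ccnb1* had 836 to 1959 CPM (median 1192) in deep cells and 169 to 1361 (median 585) in shallow cells. All 10 deep cells lay above the shallow median, and 4 lay above every shallow cell. *Fzr1* had 23.7 to 189.4 CPM (median 115.3) in deep cells and 0 to 117.3 (median 25.2) in shallow cells. Summed over the list, deep cells had 2610 to 5476 CPM and shallow cells 1080 to 4411, so the ranges overlapped although all 10 deep cells lay above the shallow median of 2153.

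Genes of the oocyte's own programme differed less evenly. Of 10 zona pellucida and secreted factor genes 2 were higher in deep cells and 0 in shallow cells, a count near the 17.1% of all tested genes, with a median of 0.32 near their 0.30. *Zp1* (chromosome 19, 10988777 to 10995122, minus strand), a cross-linking protein of the zona, had 584 to 1909 CPM (median 1108) in deep cells and 189 to 1072 (median 449) in shallow cells, a 2.44-fold difference. *Zp3*, another zona component, had 2894 to 5829 CPM (median 4216) and 1397 to 5037 (median 2601), and *Zp2* had 450 to 1477 (median 870) and 331 to 1354 (median 622). Both stayed within 2-fold, with ratios of 1.56 and 1.33. *Fgf8*, a growth factor secreted by oocytes, had 105.4 to 338 CPM (median 249) in deep cells and 0 to 308 (median 64.7) in shallow cells. Among 9 oocyte transcription factors above 10 CPM 1 was higher in deep cells, *Nobox*, with 401 to 1519 CPM (median 747) against 60.6 to 704 (median 281). The deep and shallow ranges of *Nobox* overlapped, and 7 of 10 deep cells lay above every shallow cell.

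*Nlrp5* (chromosome 7, 24170908 to 24226941, plus strand), a member of the subcortical maternal complex that early embryos need, went the other way. It had 572 to 1686 CPM (median 1217) in deep cells and 544 to 9176 (median 2445) in shallow cells, and all 10 deep cells lay below the shallow median. It was the only 1 of 8 genes of that complex past 2-fold, and the median of the complex was 0.18, or -0.03 with TMM and -0.06 with DESeq2 factors.

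The genes of DNA methylation split by member. *Dnmt3l* (chromosome 10, 77504692 to 77526367, plus strand), the cofactor of de novo methylation, had 47.5 to 249 CPM (median 143.6) in deep cells and 0 to 148.6 (median 32.8) in shallow cells, a 3.81-fold difference of means, with all 10 deep cells above the shallow median. The mean of deep GO1 was 140.2 CPM and that of GO2 142.6 CPM, and the mean of shallow GO1 was 36.8 CPM. The GO2 mean pools 18 deep cells of 70.7 to 259 CPM and 8 shallow cells of 0 to 149.6 CPM, so depth is mixed into it. The 5 deepest GO1 cells had 150.3 to 249 CPM and the other 5 deep cells 47.5 to 136.9 CPM. *Dnmt3a*, which encodes the methyltransferase itself, did not pass 2-fold, with 81.4 to 376 CPM (median 164.6) in deep cells and 37.8 to 1007 (median 198.0) in shallow cells. *Tet3*, an oxidase of methylated cytosine, had 137.7 to 982 CPM (median 256) and 70.0 to 1891 (median 245), and the range of deep cells lay wholly within that of shallow cells. *Dnmt3b* was higher in deep cells at a low level, with means of 15.8 and 5.73 CPM. Of the 12 members above 10 CPM 2 were higher in deep cells and 0 in shallow cells, and the median was 0.26, near that of all tested genes.

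Among the 10 named genes of largest ratio in each direction, those higher in shallow cells had ratios of 5.98 to 9.55 and those higher in deep cells 4.22 to 6.67. Over all called genes the median log2 differences were alike in size, at -1.27 and 1.24. *Washc4*, a subunit of the WASH complex that acts on endosomes, had 993 to 29849 CPM (median 5185) in shallow cells and 359 to 1657 (median 696) in deep cells. *Loxl2* (chromosome 14, 70008978 to 70095640, plus strand) encodes a lysyl oxidase. It had 252 to 8026 CPM (median 2005) in shallow cells and 92.01 to 739 (median 273) in deep cells. All 10 deep cells lay below the shallow median of both genes, and the means were 7.60-fold and 6.58-fold higher in shallow cells. *Xaf1*, an interferon-induced antagonist of apoptosis inhibitors, had 0 to 1815 CPM (median 55.8) in shallow cells and 1.37 to 115.7 (median 19.1) in deep cells. The ratio of its means was 9.55, while the medians differed by less. *Ctsl*, a lysosomal protease, had 0 to 2424 CPM (median 395) in shallow and 21.02 to 194.8 (median 70.2) in deep cells. *Tmem69*, *Teddm1b*, *Rab33b* of vesicle transport, the chemokine receptor gene *Cxcr2*, *Haus1* of the augmin complex and *Churc1* were 5.98-fold to 9.13-fold higher in shallow cells. Each of these 6 genes had all 10 deep cells below the shallow median. The choice of all 10 genes by quartile ranges that did not overlap largely fixed such counts.

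**Figure D3:**
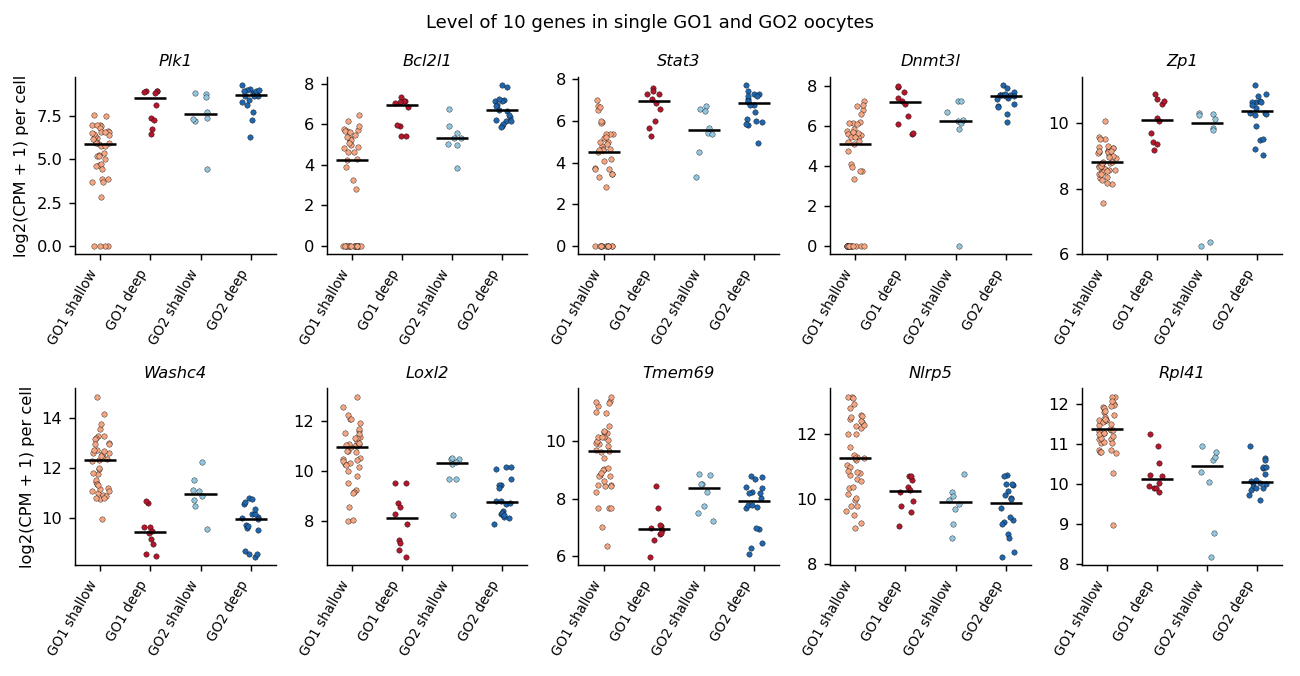
Level of 10 genes in single cells as log2(CPM + 1), for shallow and deep GO1 (41 and 10 cells) and for GO2 cells split at the same 400000 UMIs (8 and 18 cells), with medians as lines. *Plk1*, *Bcl2l1*, *Stat3*, *Dnmt3l* and *Zp1* are higher in deep GO1 and *Washc4*, *Loxl2*, *Tmem69*, *Nlrp5* and *Rpl41* in shallow GO1. At least 9 of the 10 deep GO1 cells lie within the range of the GO2 cells for each gene except *Loxl2*, for which 5 do. The GO2 ranges are wide and do not set deep cells apart for every gene. Shallow GO1 cells lie inside them too for *Zp1* (189 to 1072 CPM within 74.6 to 2302) and *Dnmt3l* (0 to 148.6 within 0 to 259).

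Transcripts of the translation and respiration machinery took a smaller share of deep cells. Genes of cytoplasmic ribosomal proteins summed to 21979 to 34570 CPM in deep cells, with a median of 23706, and to 9226 to 51854 in shallow cells, with a median of 37722. No deep cell lay above the shallow median. Of 80 ribosomal genes above 10 CPM 1 was higher in deep and 8 in shallow cells, beside 17.1% and 4.77% of all tested genes. The median difference was -0.42 on the log2 scale. The shares over all tested genes moved with abundance. In the tenth of highest mean CPM, 4.80% were higher in deep and 9.73% in shallow cells, with a median of -0.04. *Rpl41* had 885 to 2412 CPM (median 1105) in deep and 504 to 4644 (median 2650) in shallow cells, and *Rps15a* had 198 to 470 (median 251) and 235 to 1610 (median 672). These genes share sequence with processed pseudogenes, so single members are uncertain. Nuclear genes of the respiratory chain summed to 16257 to 30923 CPM (median 22241) in deep cells and 8067 to 39673 (median 31259) in shallow cells. Of 85 members 4 were higher in deep and 7 in shallow cells, to be read against the same backgrounds. Among the 7, *Ndufaf2*, an assembly factor of complex I, was 2.79-fold higher in shallow cells. The median over these members was 0.08, and it became -0.12 with TMM and -0.16 with DESeq2 factors. Among the abundant members *Atp5k* had 450 to 1356 CPM (median 644) in deep cells and 176 to 2705 (median 1697) in shallow cells, and *Cox6c* had 411 to 1261 (median 540) and 202 to 2829 (median 1319).

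The other lists are given by their counts of members above 10 CPM in either group. They are to be read against 17.1% of all tested genes higher in deep cells, 4.77% higher in shallow cells and a median of 0.30. Of 76 mitochondrial ribosomal protein genes 6 were higher in deep cells, *Mrpl12* and *Mrpl2* among them, and 3 in shallow cells, *Mrps33* and *Mrpl33* among them, with a median of 0.21 (-0.03 with DESeq2 factors). Of 35 proteasome subunits 4 were higher in deep cells (*Psmd5*, *Psmd2*, *Psmd11* and *Psmd13*) and 0 in shallow cells, with a median of 0.41. Their summed log2 difference was 0.03, and it changed sign under TMM and DESeq2 scaling (-0.17 and -0.21). Of 15 genes of mRNA storage, translation control and decay 1 was higher in deep cells, *Pabpc1l*, a poly(A)-binding protein gene of oocytes, and the median was 0.36. Among 9 cell death and checkpoint genes, *Bcl2l1* and *Trp53* were higher in deep cells and *Apaf1* in shallow cells, with a median of 0.15 (-0.06 with TMM and -0.09 with DESeq2 factors). *Malat1*, a nuclear non-coding RNA, had 71.3 to 283 CPM (median 213) in deep cells and 35.8 to 3210 (median 254) in shallow cells, and its mean was 3.53-fold higher in shallow cells. None of 10 genes of the synaptonemal complex and recombination passed 2-fold (median -0.31). None of 14 chromatin genes that the study displayed for GO1 did either (median -0.10). Of 11 factors that the study placed with NGO, 4 were above 10 CPM in either group, and 2 of these were higher in deep cells, *Pou5f1* and *Usf1*. All 11 summed to means of only 98.2 CPM in deep and 64.9 CPM in shallow cells, beside 626 CPM in NGO. These last 2 lists were chosen by the study on these cells and are not independent evidence. Of 6 immediate early and heat shock genes above 10 CPM 1 was higher in deep cells, the chaperone gene *Dnajb1* (170.0 to 621 against 44.9 to 465 CPM), and the median was -0.26.

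Deep cells also had a more even spread of transcripts. With all UMIs 9237 to 13654 genes were detected per deep cell and 3515 to 10071 per shallow cell, a count that grows with depth. After each cell was thinned to 20000 UMIs, deep cells showed 4183 to 5454 genes, with a median of 4763, and shallow cells 3373 to 4944, with a median of 4085. No cell was left out by this thinning. The 100 most abundant genes of a cell took 19.7% to 30.2% of its UMIs in deep cells (median 24.5%) and 26.2% to 38.9% in shallow cells (median 30.2%). Over the 51 cells, thinned detection had a Spearman correlation of 0.66 with UMIs, and over the 41 shallow cells of 0.44. Those are descriptions of cells that share libraries. After thinning, the size rule called 2191 genes (26.3% of 8341) higher in deep and 876 (10.5%) higher in shallow cells, of which 938 and 269 were among the calls from all UMIs. A single UMI is worth 50 CPM in a thinned cell, so genes below that level rest on few UMIs, and these 2 counts do not measure how many genes differ.

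The differences moved with the base composition of the transcripts. Lengths and GC contents of the longest GENCODE vM1 transcript were matched for 89.4% of the tested genes, 90.7% of those higher in deep cells and 80.7% of those higher in shallow cells. Median GC was 53.8% for genes higher in deep cells, 45.5% for genes higher in shallow cells and 48.8% for all tested genes. The matched genes were ordered by GC and cut into 10 equal bins. In the bin of lowest GC (32.97% to 41.3%) the median log2 difference was -0.13, and in the bin of highest GC (56.9% to 71.7%) it was 0.81. In these bins 2.46% and 42.1% of the genes were higher in deep cells. The UMI-weighted mean GC of a cell was 47.5% to 48.8% in deep cells (median 48.4%), and 46.2% to 48.2% in shallow cells (median 47.2%). The medians of GO2, GO3 and NGO were 48.2%, 48.3% and 49.4%. The part of GC in the gene differences was not tested.

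**Figure D4:**
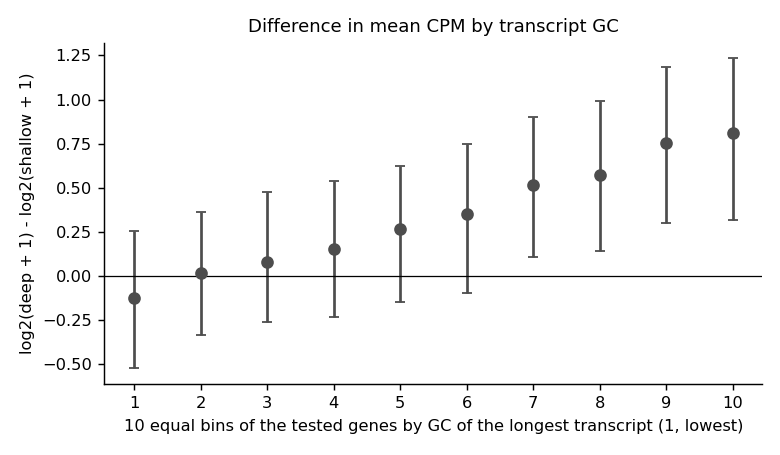
Median difference in mean CPM between deep and shallow GO1, on the log2(CPM + 1) scale, in 10 bins of the tested genes ordered by GC content of the transcript, with quartiles as bars. The median climbs from -0.13 in the lowest bin to 0.81 in the highest.

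Whether deep GO1 cells resemble GO2 cells was asked in 2 ways, both of which rest on the groups that the split made. Across genes, the mean profile of deep GO1 had a Spearman correlation of 0.96 with that of GO2 and the profile of shallow GO1 one of 0.88, over 7510 and 7347 genes above 10 CPM in either group. The root mean square of the log2 differences was 0.55 and 0.84. Deep GO1 stood about as near GO3, with 0.95 and 0.51. Both comparisons share the GO2 cells, and means over the 10 deep cells rest on more UMIs than means over the 41 shallow cells. At an equal 20000 UMIs, single deep cells had correlations of 0.68 to 0.76 with the GO2 profile (median 0.73), and single shallow cells 0.57 to 0.74 (median 0.67). Among NGO, GO2, GO3 and FGO, GO2 gave the highest correlation for 6 of 10 deep and 29 of 41 shallow cells. GO3 did so for 4 deep and 12 shallow cells. Deep cells also had the higher median with every other stage, 0.57 against 0.49 with NGO, 0.72 against 0.66 with GO3 and 0.68 against 0.62 with FGO, so the difference was not particular to GO2. Within shallow cells alone these correlations still moved with UMIs (Spearman 0.73 over 41 cells), so likeness to GO2 and depth cannot be told apart from these ranges.

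A second measure used only shallow GO1 and GO2 cells to choose genes. Between these groups 1042 genes were higher in shallow GO1 (14.2% of 7347) and 871 in GO2 (11.9%), and the share of UMIs on each set was then read in each deep GO1 cell, none of which had entered the choice. The first set took 9.18% to 33.9% of UMIs in shallow GO1 cells (median 18.2%) and 5.48% to 8.87% in GO2 cells (median 6.42%), and the deep GO1 cells divided between these ranges. The 5 deepest, numbered 1, 4, 6, 11 and 13 and all at 2617103 UMIs or more, had 5.60% to 6.60% and lay inside the GO2 range. The other 5 had 10.1% to 12.3% and lay inside the shallow GO1 range. Low shares were found beyond GO2 as well, with medians of 7.11% in GO3, 7.93% in FGO and 8.32% in NGO. The second set took 14.4% to 15.8% of UMIs in the same 5 deepest cells, against 8.71% to 16.2% in GO2 cells (median 14.4%) and 2.95% to 11.04% in shallow GO1 cells (median 5.34%). The remaining 5 deep cells had 7.19% to 10.4%, inside the range of shallow GO1 cells, and 2 of them (cells 8 and 15, at 8.76% and 10.4%) also lay inside the lower end of the GO2 range. Of the 26 GO2 cells 3 had a low ribosomal level, of 5805 to 8701 CPM against 21449 or more in the other 23, and 1 of these 3, with 98004 UMIs, set the lower end. Without them the GO2 range began at 9.05% and cell 8 lay outside it. Medians of the second set were 13.6% in GO3, 12.9% in FGO and 12.2% in NGO, so neither set places a cell at GO2 rather than at another stage. Cell 15, with 2380942 UMIs, was therefore close in depth to the deepest cells and apart from them in both shares.

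**Figure D5:**
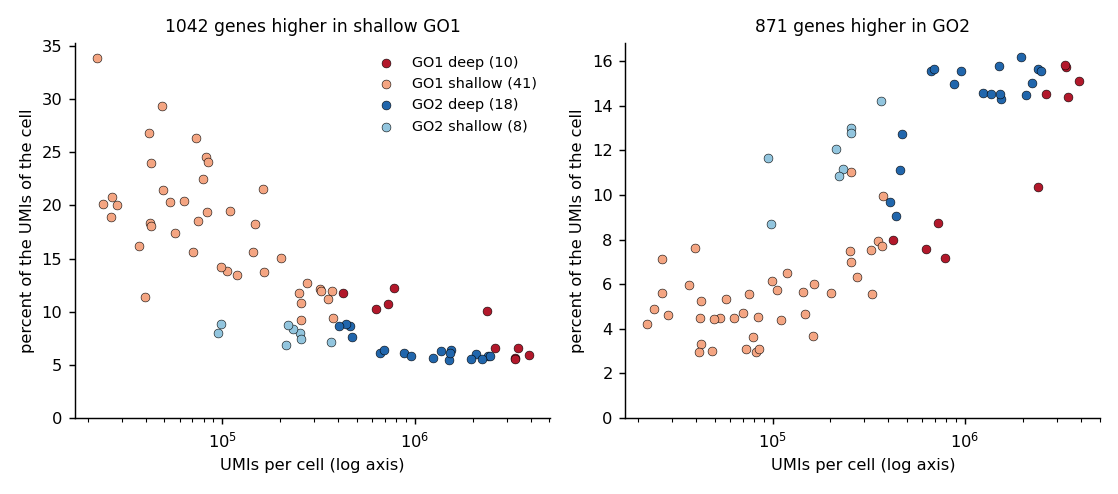
Percent of the UMIs of each GO1 and GO2 cell on 1042 genes higher in shallow GO1 than in GO2 (left) and on 871 genes higher in GO2 (right), against UMIs per cell (log axis). The 5 deepest GO1 cells lie among the GO2 cells in both panels, at 5.60% to 6.60% and 14.4% to 15.8%, and the other 5 deep cells lie within the range of the shallow GO1 cells.

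Depth moved with these shares within stages too. Deep GO2 cells had a median of 6.12% on the first set and shallow GO2 cells 8.02%, and on the second set 14.8% and 11.9%. With sets chosen from cells below 400000 UMIs in both stages (1191 genes, 16.4% of 7254, higher in shallow GO1 and 493, 6.80%, higher in shallow GO2), the 5 deepest GO1 cells had 5.87% to 6.70% and the other 5 had 9.41% to 11.7%. The shares of shallow GO1 cells on the first of these sets were 8.43% to 28.4% and those of all GO2 cells 3.93% to 8.03%. On the second set the 5 deepest had 9.31% to 10.6% and the others 5.58% to 7.85%, where GO2 cells had 8.77% to 16.3% and shallow GO1 cells 2.95% to 9.67%. The same 5 cells stood on each side with both choices of genes, which share the shallow GO1 cells.

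Between deep GO1 and all GO2 cells, 756 of 7510 genes (10.1%) were higher in deep GO1 and 24 (0.320%) in GO2. Beside them stand 1042 and 871 for shallow GO1 against the same GO2 cells. Against the 18 deep GO2 cells alone, 750 of 7525 genes (9.97%) were higher in deep GO1 and 14 (0.186%) in GO2. Without the 3 GO2 cells of low ribosomal level, deep GO1 against GO2 gave 798 and 20. The 756 rested on few cells. Cell 21 was the highest deep cell for 342 of these genes, cell 15 for 254 and cell 8 for most of the remainder. Without cell 15 the count was 436, without cell 21 440 and without cell 8 557, and without each of the other 7 it was 825 to 911. Among the 6 of these genes with the highest mean, chosen after their values were seen, *Bmp15* showed the pattern. This oocyte growth factor of granulosa cells had 1616, 1909 and 2943 CPM in cells 8, 15 and 21 and 355 to 786 in the other 7 deep cells, beside 279 to 706 in GO2 cells and a mean of 1073 in shallow GO1. *Ddx3x*, which encodes an RNA helicase, had 711, 926 and 1119 CPM in the same 3 cells and 176 to 370 in the other 7, and *Rif1*, a regulator of replication timing, had 587, 624 and 737 against 66.8 to 164. *Ybx3*, an RNA-binding protein gene, had 627, 633 and 759 against 54.9 to 245. *Bcar3* and *Igf2bp2* completed these 6, both highest in cell 21. The 24 genes higher in GO2 included *Akap5* (means 1481 and 689 CPM) and *Loxl2* (718 and 331 CPM), which were higher still in shallow GO1 (3525 and 2176 CPM).

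Genes that separate NGO from GO2 placed deep GO1 no nearer to GO2. Of 8279 genes 2817 (34%) were higher in NGO and 1438 (17.4%) in GO2. The first set took 8.99% to 14.6% of UMIs in deep GO1 cells (median 12.5%), and the medians were 10.4% in shallow GO1 cells, 33.7% in NGO and 9.77% in GO2. The second took 26.7% to 36.4% in deep cells (median 30.0%), and the medians were 32.1% in shallow cells, 9.47% in NGO and 33.8% in GO2. Both GO1 groups thus lay far from NGO, and by this measure the shallow median was the nearer to GO2. The order depended on where the cells were split. The 5 shallow cells of 323273 UMIs or more had 34.3% to 37.96% on the second set, above the deep median. With the split at 200000 UMIs the difference of medians, deep minus shallow, was -0.73 percentage points on the first set and 2.64 on the second.

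The deep-against-shallow difference was also read in the other stages, whose cells had no part in choosing the genes. Split at the same 400000 UMIs, GO2 had 18 deep and 8 shallow cells, and 90.6% of the 1317 genes higher in deep GO1 had a higher mean in deep than in shallow GO2, beside 64.9% of all 7710 genes. In FGO (36 and 20 cells) the shares were 96.1% and 65.9%, in GO3 (35 and 9 cells) 88.6% and 58.6%, and in NGO (30 and 16 cells) 71.2% and 57.3%. Of the 368 genes higher in shallow GO1, 67.4% were lower in deep than in shallow GO2, 80.7% in FGO, 80.7% in GO3 and 65.8% in NGO, beside 35.1%, 34.1%, 41.4% and 42.6% of all tested genes. Across the 7710 genes the log2 differences of GO1 had a Spearman correlation of 0.61 with those of FGO, 0.53 with GO3, 0.51 with GO2 and 0.25 with NGO, given as a description since the genes share base composition and depth. *Plk1* differed in the same direction in GO2 and FGO, with log2 differences of 0.65 and 0.69, and *Washc4* with -1.16 and -1.52. The GC gradient was present there too, with medians of -0.05 and 0.50 in the lowest and highest GC bin of GO2 and -0.05 and 0.47 in FGO. It was smaller in GO3, at 0.02 and 0.19, and near 0 in NGO, at 0.04 and 0.05. The differences of the called genes were smaller at these stages than in GO1. The 1317 genes had median log2 differences of 0.66 in GO2, 0.63 in FGO, 0.38 in GO3 and 0.13 in NGO, beside 1.24 in GO1. For the 368 genes they were -0.30, -0.48, -0.32 and -0.16, beside -1.27. Over all tested genes they were 0.20, 0.21, 0.08 and 0.05. The choice of these genes in GO1 raised their GO1 values. Genes that separate deep from shallow GO1 thus differed with depth at other stages as well, by less and least in NGO.

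Within GO1 the counts were larger for the deeper of the deep cells. The 6 cells above 1000000 UMIs gave 1816 (23.4%) genes higher and 644 (8.31%) lower than in shallow cells, and the 4 deep cells below gave 707 (9.25%) and 284 (3.72%). These subgroups differ in number of cells as well as in depth. Compared only with the 11 shallow cells numbered up to 21, deep cells had 1300 (16.8%) higher and 320 (4.14%) lower genes. Of these, 801 and 175 were among the 1317 and 368 genes called against all shallow cells, so the calls were largely other genes. Of the 1317 and 368, 1313 and 335 kept their direction. Compared with the 30 numbered above 21, deep cells had 1554 (20.0%) and 492 (6.32%), of which 1248 and 349 were among those calls. The shallow cells themselves differed by number, with 477 genes (6.44% of 7404) higher in those numbered up to 21 and 572 (7.73%) in the others.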

How the data were processed

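Single oocytes were lysed, their polyA RNA was reverse transcribed and amplified, and 4 libraries were sequenced. The authors split reads by cell barcode, aligned them with Tophat to the mouse mm9 transcriptome, removed duplicates by UMI and kept cells that passed filters on genes, transcripts and spike-ins. The deposited values are raw UMI counts that were not normalized (23201 genes in 223 cells), and every row names a gene. The table gives each cell's stage and number but not its library, and barcodes could not be joined to cells. The iscCOOL-seq samples (chromatin accessibility and DNA methylation of other cells) were not used here.

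GO1 cells were split at 400000 UMIs. CPM was computed per cell and averaged over cells. A gene was called at a 2-fold difference of means with at least 10 CPM in the higher group, and log2 differences use a pseudocount of 1 CPM. With 1 pooled sample per group there was no test. Cells were thinned without replacement to 20000 UMIs. Ratios of summed UMIs carry exact intervals at 95% for counting error only. No doublet caller was run, since oocytes were picked by hand. GC and length come from the longest GENCODE vM1 transcript on NCBIM37, which is mm9. The size rule was tested on simulated data, where it recovered known changes from all UMIs with few false calls. The simulated cells varied by counting error alone, so false calls from variation between real cells were not measured. The known changes were larger than 2-fold and lay only in genes with a mean well above 10 CPM. Recovery of smaller changes, or of changes nearer that limit, was not measured. After thinning to 20000 UMIs the rule also called many unchanged genes at 10 CPM, and fewer with a higher limit. Counts after thinning are thus not estimates of how many genes differ. The analysis ran in Python 3.11.15 with pandas 2.3.3, numpy 2.4.6, matplotlib 3.10.9 and scipy 1.17.1, and edgeR 4.0.16 (TMM) and DESeq2 1.42.0 in R 4.3.3 gave only alternative scaling factors.

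Named genes were the 10 with the largest ratio in each direction among those called with all UMIs and after thinning, with at least 50 CPM in the higher group and quartile ranges over cells that did not overlap. To these were added, from each of 22 gene lists, up to 4 called members of the highest mean, and *Zp1*, *Zp2*, *Zp3*, *Dnmt3a*, *Dnmt3l* and *Tet3* whatever their values. *Gpr3*, single marker genes and the genes named between deep GO1 and GO2 were chosen after their values were seen. The list of genes of the mitochondrial genome had 0 members in the table. The members and lists were chosen with earlier results of these data known. Alternatives were other splits, thinning, scalings, filters, folds and left-out cells. Leaving out single deep cells, comparing cells above and below 1000000 UMIs and using only numbers up to 21 were chosen after seeing the data, as were leaving out the shallow cell and the GO2 cells of low ribosomal level, and the shares on genes that separate shallow GO1 from GO2.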

Additional observations from a re-analysis of the deposited data

Results flagged for a closer look

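Of 87 sets of values of the 10 deep cells, each tested for 1 value far from the others by Dixon's criterion, 5 had such a value. Chance flags about 1 in 20. Cell 7, with 626339 UMIs, had the highest summed level of the DNA methylation and imprint protection genes, 9041 CPM, where the next deep cell had 7921. It also had the highest *Teddm1b*, 289 CPM with 125.2 in the next cell, and the highest *Tmem69*, 348 CPM with 201 in the next cell. In the plot of shares this cell lay with shallow GO1 cells. Cell 4, the deepest, had the highest *Xaf1*, 115.7 CPM with 43.9 in the next cell, and cell 11 had the highest *Pou5f1*, 54.7 CPM with 35.2 in the next cell.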

How the results depend on the processing

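The counts of genes depended on the processing, and 38 of 150 alternative counts differed from the reported one by over 1.5 times. Some of the 150 could not differ. Settings that changed only the deep cells, such as leaving out 1 of them, left shallow GO1 against GO2 at 1042 and 871 by construction. The share that moved is therefore understated. None of the named genes past 2-fold changed direction, but their choice made this likely and it is no measure of robustness. The genes of largest ratio had also to pass after thinning, and the scalings moved log2 differences by at most 0.24. *Tet3*, which was not past 2-fold, changed sign with the split at 200000 UMIs and against shallow cells numbered up to 21. The summed levels of granulosa, subcortical complex, chromatin, immediate early and proteasome genes, all near 0, changed sign under at least 1 alternative. Genes higher in deep and in shallow GO1 (1317 and 368) became 2191 and 876 after thinning to 20000 UMIs, 2716 and 238 with medians over cells, 787 and 559 with TMM factors, 717 and 603 with DESeq2 size factors, 5192 and 1987 without a filter, 516 and 187 from 50 CPM, 2678 and 847 at 1.5-fold and 310 and 1.2e+02 at 3-fold. A split at 200000 UMIs gave 843 higher in deep cells and one at 800000 UMIs 607 higher in shallow cells. Deep cells below 1000000 UMIs gave 707 higher, and those above gave 644 higher in shallow cells. For deep GO1 against GO2 (756 and 24) the counts were 356 and 13 with the split at 200000, 391 and 48 with the split at 800000 or with deep cells above 1000000 alone, 1387 and 315 with those below, 1861 and 502 after thinning to 20000 UMIs, 1296 and 185 after thinning to 50000, and 233 and 15 with summed UMIs. Leaving out 1 deep cell at a time gave 436 to 911 and 23 to 33, and for deep against shallow GO1 1189 to 1501 and 348 to 413. Against GO2 cells of the same depth class 14 genes were higher in GO2 than in deep GO1, and 493 higher than in shallow GO1. The median share on genes higher in NGO, 2.06 percentage points above that of shallow cells, was -0.73 with the split at 200000 and 4.20 with sets from GO2 cells under 400000 UMIs, and that on genes higher in GO2 moved from -2.04 to 2.64 with the split at 200000. The median difference of single-cell correlation with GO2 was 0.06 at 20000 UMIs and 0.18 with all UMIs. Among lists, oocyte markers (0.26) gave 0.035 and meiotic arrest genes (0.95) 0.50 with deep cells below 1000000 alone, and mRNA storage genes (0.48) 0.14 with the split at 200000. The cause of these changes was not tested. No paired analysis was possible because cells carry no library and no test was run. The depth of shallow cells limits the reading of genes below about 36.4 CPM in single cells.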
